A study of Arabidopsis thaliana with 58 samples.

Results

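The Calvin cycle fixes CO2 in the chloroplast stroma, and photorespiration recovers carbon from the 2-phosphoglycolate that Rubisco forms when it takes O2 in place of CO2. The genes described here are 36 nuclear loci of *Arabidopsis thaliana*, 24 of the Calvin cycle with its regulators and carbonic anhydrases and 12 of photorespiration. They were chosen by pathway from a list of loci and are 36 of the 23898 genes listed in at least 1 of 7 tables. Strand-specific RNA-seq had been performed on mature leaves (the oldest leaf pair) and expanding leaves (the next pair) on days 3, 5 and 8 of treatment, at an age of 13, 15 and 18 days, and on roots on day 3. All plants were wild-type Columbia-0 in hydroponic culture at 22°C with 16 h of light. Control plants received 1.5 mM Mg throughout and Mg-deficient (−Mg) plants were moved to a solution with 0 mM Mg. In the −Mg solution sodium sulphate replaced magnesium sulphate, so that −Mg plants also received more sodium. The authors found transcripts of the salt stress marker SOS1 unchanged, but Mg and sodium cannot be told apart in these comparisons. Each library was made from tissue of 2 or 3 plants. Control and −Mg libraries numbered 4 and 3, 5 and 3, and 4 and 4 in mature leaves on days 3, 5 and 8, 5 and 4, 5 and 3, and 4 and 5 in expanding leaves, and 6 and 3 in roots. Values are the deposited normalised signal, a read number adjusted to the common library size of its table. Because each table was adjusted on its own, groups were compared within a table, and only fold changes were compared between tables.

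Both pathways run mostly in mesophyll chloroplasts, and photorespiration continues through peroxisomes and mitochondria before glycerate returns to the chloroplast. Mg is bound at the active site of Rubisco, and stromal Mg rises in the light and activates several enzymes of the cycle. All 36 members were listed in each of the 6 leaf tables and 35 in the root table, where phosphoglycolate phosphatase PGLP1 had no row. A gene was tested where its mean signal in the table was at least 5. This left 36 members in expanding leaves on every day and in mature leaves on days 3 and 5, 35 in mature leaves on day 8 (not PGLP1), and 22 in roots.

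Depth, found by undoing the adjustment, ran from 545998 to 4014871 reads (median 1964031). The number of genes with a read differed between groups in the tables that matter most here. It was 17206 to 18285 in control and 12656 to 16654 in −Mg expanding leaves on day 5, 12275 to 15172 against 18422 to 18718 on day 8, and 6908 to 14557 against 12541 to 17029 in mature leaves on day 8. Rescaling each library by the median of ratios moved the median log2 fold change of all genes by 0.28 in expanding leaves on day 5, by -0.58 on day 8 and by -1.53 in mature leaves on day 8, and by less than 0.1 elsewhere. With that rescaling, higher and lower calls over all genes went from 2132 and 2297 to 2550 and 1874 in expanding leaves on day 5, from 4774 and 2317 to 3322 and 3461 on day 8, and from 457 and 23 to 332 and 594 in mature leaves on day 8. The part of depth in the results was not tested. The 4 root markers COBL9, EXP7, CASP1 and MYB36 were all tested in roots, and at most 1 of them was listed in any leaf table.

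In expanding leaves no member passed the test on day 3, most fell by day 5 and nearly all by day 8. On day 3, 0 of 36 members passed a limma adjusted p under 0.05 in either direction, 1 was lower at an unadjusted p under 0.05, and voom on the recovered reads called 0. Over all genes 0.17% were called higher and 0.0589% lower on that day. On day 5, 28 of 36 members were called lower and 0 higher, against a background of 14.8% lower and 13.7% higher among 15570 genes. On day 8, 34 of 36 were called lower and 1 higher, against 14.9% lower and 30.8% higher among 15523 genes. The median log2 fold change of the members was -0.02 on day 3, -1.50 on day 5 and -2.42 on day 8, beside medians over all genes tested of 0.03, -0.34 and 0.63. In bulk tissue a smaller share of mesophyll cells and less RNA per cell cannot be told apart.

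**Figure D1:**
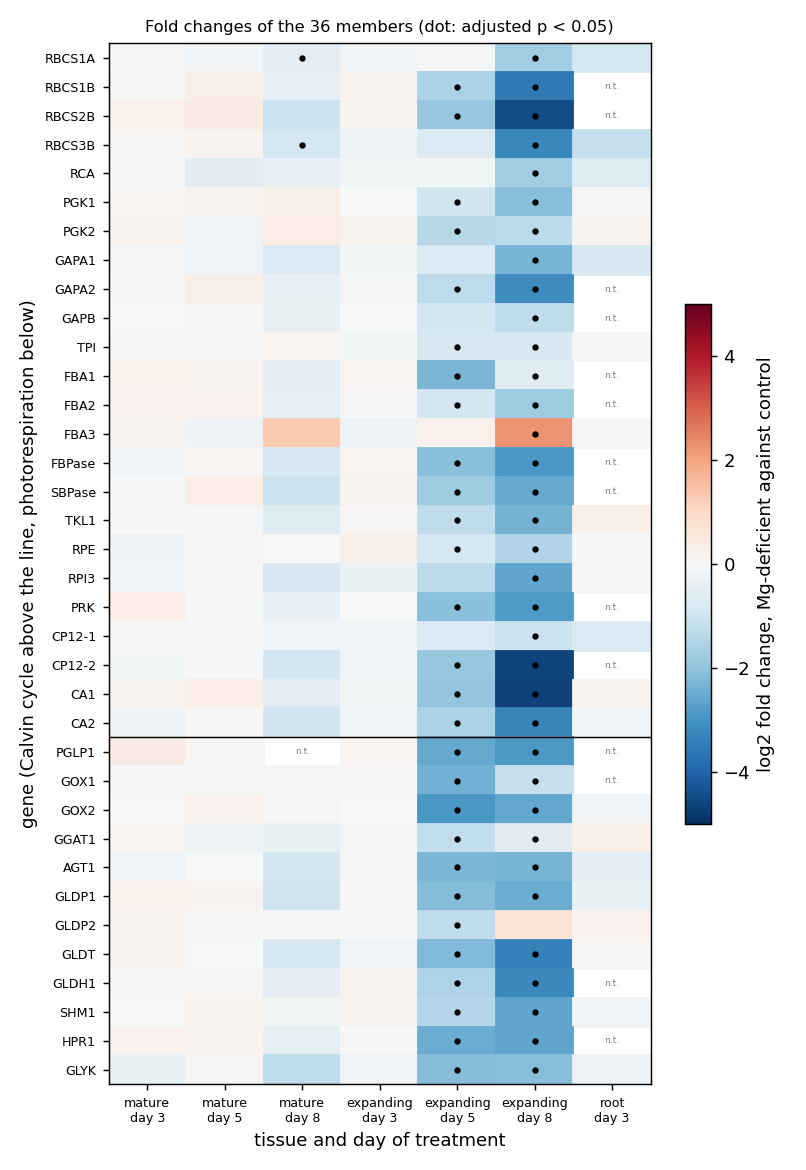
Log2 fold change of each member (rows) in each tissue and day (columns), −Mg against control, with blue for lower and red for higher signal, a dot for an adjusted p under 0.05 and n.t. for members not tested. Dots fill most of the day 5 and day 8 columns of expanding leaves (28 and 35 members), and FBA3 is the 1 member with a dot on red.

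The summed signal of the members gives the weight of the fall. In expanding leaves on day 3 they made up 6.41 to 8.19% of the signal in control and 6.53 to 7.61% in −Mg libraries. On day 5 the range was 7.14 to 8.79% for controls and 3.06, 6.6 and 6.79% for −Mg libraries, of which library 1 lay far below the other two. By day 8 the share was 6.22 to 7% in control libraries and 0.984 to 1.86% in −Mg libraries. On day 5 the 4 small-subunit genes took 3.67 to 5.07% of the control signal and 1.94, 4.72 and 4.8% of the −Mg signal, so that the groups overlapped. The other 32 members took 3.39 to 3.72% in control and 1.12 to 2% in −Mg libraries, with no overlap.

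**Figure D2:**
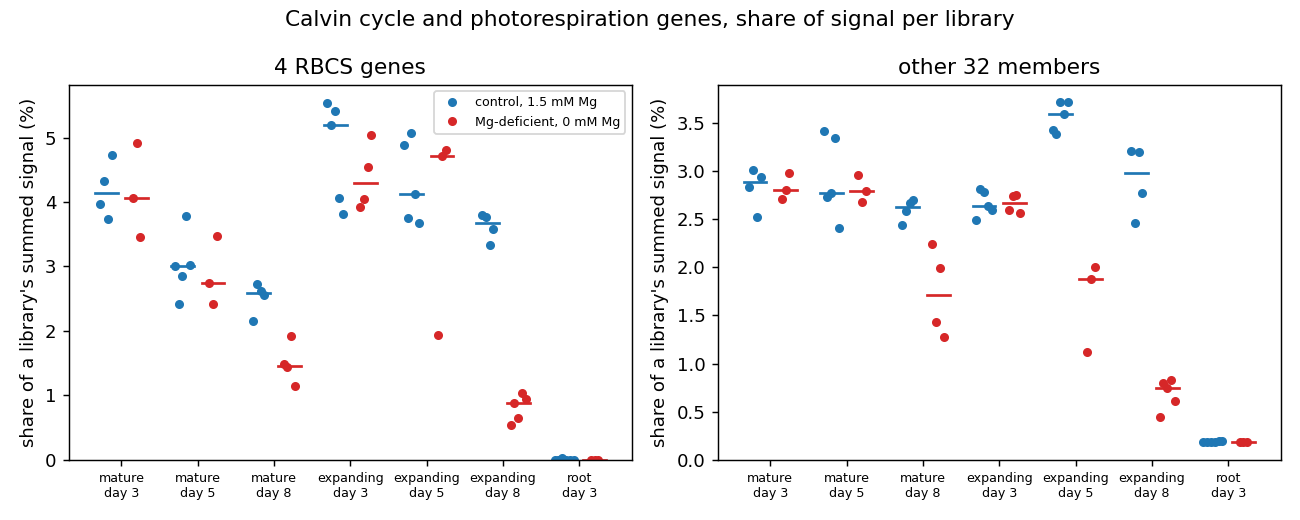
Share of each library's summed signal held by the 4 RBCS genes (left) and by the other 32 members (right), in percent, with 1 point per library and a line at the group median. In expanding leaves on day 5 the RBCS shares of the groups overlap, while the other members lie at 3.39 to 3.72% in control and 1.12 to 2% in −Mg libraries.

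Rubisco joins CO2 to ribulose 1,5-bisphosphate, and its small subunit is encoded by RBCS1A (AT1G67090) on chromosome 1 and by RBCS1B (AT5G38430), RBCS2B (AT5G38420) and RBCS3B (AT5G38410), which lie next to each other on chromosome 5. On day 5 the test passed for RBCS1B and RBCS2B and not for RBCS1A or RBCS3B. RBCS1A gave a signal of 74000, 50910, 76810, 58630 and 53070 in control and 26120, 85510 and 82760 in −Mg libraries. −Mg library 1 lay below all controls and the other two lay above all of them. The log2 fold change was -0.12 ± 0.65 (SE), adjusted p = 0.9 (limma). RBCS2B gave 4665, 5684, 4360, 5621 and 4759 in control and 631, 1765 and 2190 in −Mg libraries, with no overlap (log2 fold change -1.89 ± 0.38, adjusted p = 0.0054). RBCS1B was lower in every −Mg library too, at 1983, 2030, 2334, 2065 and 1783 in control and 275, 1063 and 1092 in −Mg libraries (log2 fold change -1.57 ± 0.41, adjusted p = 0.018). RBCS3B stood at 23750, 19860, 23670, 21910 and 18780 in control and 7207, 17300 and 17560 in −Mg libraries. Its groups did not overlap, but the log2 fold change was -0.73 ± 0.44 (SE), adjusted p = 0.23, which did not pass.

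By day 8 every small-subunit gene had fallen. RBCS1A read 51250, 57600, 40240 and 46450 in control and 10630, 15060, 12390, 17660 and 17810 in −Mg libraries (log2 fold change -1.75 ± 0.21, adjusted p = 2.8e-05). RBCS2B read 3833, 1737, 2258 and 2757 in control and 62, 175, 43.2, 455 and 89.7 in −Mg libraries (log2 fold change -4.46 ± 0.55, adjusted p = 3.8e-05). RBCS1A thus kept 30.1% of its control mean and RBCS2B kept 6.24%, and no −Mg library reached a control library for either gene. RBCS1B was at 1565, 1403, 1570 and 1060 against 58, 146, 103, 302 and 74.5 (log2 fold change -3.58 ± 0.39, adjusted p = 1.6e-05). RBCS3B was at 15080, 9923, 9170 and 13330 against 737, 1430, 849, 2331 and 1319 (log2 fold change -3.25 ± 0.31, adjusted p = 5.2e-06).

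The ratio of RBCS1A to the sum of the B genes within a library does not depend on the scaling between libraries. On day 3 the log2 ratio was 1.59 ± 0.16 (SD, n = 5) for control and 1.62 ± 0.26 (n = 4) for −Mg leaves (exact permutation test, p = 0.84). On day 5 it was 1.11 ± 0.19 (n = 5) against 1.92 ± 0.21 (n = 3), a difference of 0.81 (exact permutation p = 0.018, adjusted 0.04 over 27 ratios). By day 8 it was 1.63 ± 0.36 (n = 4) against 3.29 ± 0.49 (n = 5), a difference of 1.66 (exact permutation p = 0.016, adjusted 0.04). In both later comparisons the ratio was higher in every −Mg library than in any control library. Every paralog ratio called in expanding leaves, here and below, had this same adjusted p of 0.04. On leaving out 1 library the number of ratios called ran from 0 to 12, where fewer samples raise the smallest p the test allows. The values are ratios of signals, not of signals per length. The B genes share sequence: of the 50-base windows of their exons, 12% in RBCS1B, 16.9% in RBCS2B and 16.5% in RBCS3B occur again elsewhere in the genome, so that reads may be split among them and their separate values are uncertain, while 0 windows of RBCS1A do. Summed over the B genes the signal was 28650 ± 2188 (SD, n = 5) for control and 16360 ± 7154 (n = 3) for −Mg leaves on day 5, and 15920 ± 3606 (n = 4) against 1635 ± 889 (n = 5) on day 8.

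The sequences before RBCS1A and RBCS2B are shown because these genes code for the same subunit and differed on day 5. They are the 250 bases upstream of the annotated gene start in RefSeq's annotation of TAIR10.1, on the minus strand at chr1:25049668-25049917 and chr5:15382072-15382321, written 5′ to 3′. Capitals mark the I-box letters GATAAG and the G-box letters CACGTG, elements known from light-responsive promoters, searched on both strands, which do not overlap each other here.
RBCS1A: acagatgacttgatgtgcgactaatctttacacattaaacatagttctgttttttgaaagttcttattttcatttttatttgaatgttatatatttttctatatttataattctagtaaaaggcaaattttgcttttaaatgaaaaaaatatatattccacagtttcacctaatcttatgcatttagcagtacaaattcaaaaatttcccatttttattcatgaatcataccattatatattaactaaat
RBCS2B: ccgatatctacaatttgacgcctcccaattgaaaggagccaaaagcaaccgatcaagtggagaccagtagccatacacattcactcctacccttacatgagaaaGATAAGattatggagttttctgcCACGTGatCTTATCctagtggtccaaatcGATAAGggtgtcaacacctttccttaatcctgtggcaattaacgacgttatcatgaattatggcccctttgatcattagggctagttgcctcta
RBCS2B holds 3 I-box matches, beginning 146, 115 and 94 bases before the start, and 1 G-box match, beginning 123 bases before it, and RBCS1A holds 0 of either in this window. RBCS1B, which was also called lower on day 5, and RBCS3B hold 0 of either too. RCA, which was not called on day 5, holds 1 I-box match. Among the other members, FBPase, PRK, CP12-2, GGAT1, GLDP1 and GLDP2 hold a match and were called lower on day 5. Most members called lower on that day hold no match of either kind. Of all 27443 protein-coding promoters of this length 12.3% hold the I-box letters and 6.49% the G-box letters, and of the 36 members 5 (13.9%) hold each. A match is a description of letters and was not tested against the fold changes.

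Rubisco activase, RCA (AT2G39730), removes inhibitory sugar phosphates from the active site. On day 5 its signal was 10030, 6412, 14660, 7934 and 7388 in control and 6068, 11070 and 7941 in −Mg libraries, with overlap (log2 fold change -0.13 ± 0.38, adjusted p = 0.81). At day 8 it was 8843, 9836, 13720 and 9066 against 2100, 3405, 3273, 3988 and 2871, below every control library (log2 fold change -1.74 ± 0.21, adjusted p = 3.7e-05). The fold change of RCA was lower on day 8 than on day 5, by -1.61 ± 0.44 (SE) on the log2 scale (adjusted p = 0.021).

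Reduction of 3-phosphoglycerate to triose phosphate takes phosphoglycerate kinase and the chloroplast NADP-dependent glyceraldehyde-3-phosphate dehydrogenase (GAPDH). PGK2 (AT1G56190) fell on day 5 from 638, 563, 415, 619 and 600 in control to 185, 200 and 240 in −Mg libraries (log2 fold change -1.43 ± 0.22, adjusted p = 0.0012). After 8 days it was 319, 211, 177 and 352 against 73, 102, 91.6, 106 and 135 (log2 fold change -1.35 ± 0.27, adjusted p = 0.0014). No −Mg library reached a control library on either day. The paralog PGK1 (AT3G12780) was at 50.3% of its control mean on day 5 and 22.6% on day 8 (adjusted p = 0.0061 and 2.9e-05). Among the GAPDH genes only the second A-subunit gene, GAPA2 (AT1G12900), passed on day 5, from 2230, 2433, 2609, 2512 and 2161 in control to 498, 1302 and 1366 in −Mg libraries (log2 fold change -1.31 ± 0.33, adjusted p = 0.015). GAPA1 (AT3G26650) and the B subunit GAPB (AT1G42970) had log2 fold changes of -0.76 and -0.92 with adjusted p of 0.17 and 0.06, and GAPB passed without −Mg library 2 or 3 (-1.15 and -1.16). On day 8 all 3 fell, GAPA2 from 2057, 1844, 1381 and 1657 to 93, 294, 171, 417 and 140 (log2 fold change -3.14 ± 0.37, adjusted p = 2.5e-05), GAPA1 by 2.33 and GAPB by 1.29 on the log2 scale.

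Triose-phosphate isomerase and aldolase carry triose phosphates back towards sugar bisphosphates. Plastid TPI (AT2G21170) fell on day 5 from 2384, 2588, 2858, 2757 and 2706 in control to 1200, 1608 and 1686 in −Mg libraries (log2 fold change -0.84 ± 0.23, adjusted p = 0.02). On day 8 it stood at 1390, 1265, 2124 and 1415 against 700, 879, 948, 1052 and 851 (log2 fold change -0.79 ± 0.20, adjusted p = 0.0054). Its day 5 call was lost without control library 4 (-0.83), after rescaling by the median of ratios (-0.54) and with a replicate block (-0.81). The plastid aldolases went apart. FBA1 (AT2G21330) had the strongest fall of the Calvin cycle genes on day 5, from 1492, 1491, 1313, 1773 and 1794 in control to 155, 442 and 495 in −Mg libraries (log2 fold change -2.27 ± 0.35, adjusted p = 0.0013). On day 8 FBA1 read 796, 662, 632 and 502 in control and 292, 534, 427, 402 and 476 in −Mg libraries, with overlap (log2 fold change -0.61 ± 0.21, adjusted p = 0.033). FBA2 (AT4G38970) changed in the other order, with a log2 fold change of -0.90 on day 5 (adjusted p = 0.044) and -1.80 on day 8 (adjusted p = 4.9e-06). The FBA2 call on day 5 was lost without any 1 of 7 libraries (all 5 controls, −Mg 1 and 3). Its log2 fold changes then lay between -0.97 and -0.55. The call was also lost after rescaling (-0.60), with array weights (-0.56) and with a replicate block (-0.91). The FBA1 call on day 8 was lost on leaving out control 1 or 2, or −Mg library 1, 3 or 4, with values between -0.62 and -0.48. It was also lost with array weights (-0.65) and with a replicate block (-0.66).

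FBA3 (AT2G01140) was the 1 member that rose. On day 5 its signal of 48.5, 59.3, 60.9, 39.5 and 48 in control and 46.9, 89.9 and 53.6 in −Mg libraries overlapped (log2 fold change 0.26 ± 0.32, adjusted p = 0.55). By day 8 it was 8.25, 47.8, 40.4 and 17.6 in control and 106, 111, 114, 112 and 125 in −Mg libraries, higher in every one (log2 fold change 2.24 ± 0.45, adjusted p = 0.0013). The log2 fold change was 1.63 after rescaling by the median of ratios, still called. Within a library the log2 ratio of FBA3 to FBA2 was -5.53 ± 0.27 (SD, n = 5) for control and -4.36 ± 0.33 (n = 3) for −Mg leaves on day 5 (exact permutation p = 0.018, adjusted 0.04), and -6.18 ± 1.27 (n = 4) against -2.14 ± 0.21 (n = 5) on day 8 (exact permutation p = 0.0079, adjusted 0.04). The ratio of FBA1 to FBA2 differed between −Mg and control by -1.37 on day 5 (exact permutation p = 0.018, adjusted 0.04) and by 1.19 on day 8 (exact permutation p = 0.0079, adjusted 0.04). Neither FBA ratio overlapped between groups on day 5 or day 8. These p values are the smallest the design can give.

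The bisphosphatases and transketolase rebuild the 5-carbon acceptor. Plastid fructose-1,6-bisphosphatase, here FBPase (AT3G54050), had 1119, 994, 541, 1206 and 1261 in control and 67.3, 359 and 481 in −Mg libraries on day 5 (log2 fold change -2.11 ± 0.56, adjusted p = 0.018). At day 8 it had 964, 354, 503 and 456 against 35, 85.7, 77.6, 114 and 57.8 (log2 fold change -2.92 ± 0.36, adjusted p = 3.9e-05). Sedoheptulose-1,7-bisphosphatase, SBPase (AT3G55800), which commits carbon to regeneration, fell on day 5 from 542, 640, 445, 668 and 614 to 61.1, 201 and 343 (log2 fold change -1.82 ± 0.45, adjusted p = 0.013). Both genes were lower in every −Mg library. On day 8 SBPase read 532, 331, 297 and 340 in control and 45, 60.8, 77.9, 104 and 36.2 in −Mg libraries (log2 fold change -2.58 ± 0.32, adjusted p = 4.1e-05). Transketolase TKL1 (AT3G60750) read 2576, 2436, 2893, 2801 and 2599 against 496, 1598 and 1748 on day 5 (log2 fold change -1.25 ± 0.38, adjusted p = 0.032). The TKL1 call on day 5 was lost without any 1 of the 5 control libraries, at log2 fold changes of -1.28 to -1.22. It was also lost with a replicate block (-1.24). On day 8 TKL1 read 1997, 1566, 2142 and 1428 against 230, 456, 397, 454 and 243 (log2 fold change -2.36 ± 0.25, adjusted p = 1.3e-05).

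The last steps form ribulose 1,5-bisphosphate. Ribulose-phosphate epimerase RPE (AT5G61410) gave 756, 676, 767, 721 and 718 in control and 265, 380 and 620 in −Mg libraries on day 5 (log2 fold change -0.87 ± 0.26, adjusted p = 0.032). This call too was lost without any 1 control library or without −Mg library 2, at -0.90 to -0.84. It was also lost after rescaling by the median of ratios (-0.57) and with a replicate block (-0.88). On day 8 RPE gave 610, 492, 601 and 677 against 183, 220, 218, 241 and 192 (log2 fold change -1.49 ± 0.18, adjusted p = 3.3e-05). Ribose-5-phosphate isomerase RPI3 (AT3G04790) gave 962, 661, 1121, 888 and 848 against 114, 625 and 573 on day 5, without overlap and without passing (log2 fold change -1.35 ± 0.48, adjusted p = 0.058). It passed without −Mg library 2 (-1.78) or 3 (-1.72), and on day 8 it gave 522, 457, 386 and 377 against 55, 80.7, 50.2, 122 and 55.1 (log2 fold change -2.64 ± 0.28, adjusted p = 1.3e-05). Phosphoribulokinase PRK (AT1G32060), the kinase that makes the CO2 acceptor, fell from 3507, 3475, 2825, 4061 and 3918 to 373, 1235 and 1279 on day 5 (log2 fold change -2.07 ± 0.39, adjusted p = 0.0036). On day 8 PRK was 1756, 1774, 1904 and 1969 in control and 132, 393, 310, 370 and 183 in −Mg libraries (log2 fold change -2.85 ± 0.30, adjusted p = 1.1e-05).

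CP12 is a small redox-sensitive protein that holds GAPDH and PRK in an inactive complex in the dark. CP12-2 (AT3G62410) fell on day 5 from 1246, 1284, 886, 1332 and 1175 to 121, 388 and 618 (log2 fold change -1.93 ± 0.43, adjusted p = 0.0089). After 8 days it went from 1442, 1271, 865 and 1045 to 23, 73.7, 55.5, 88.5 and 21.9, 4.54% of the control mean (log2 fold change -4.62 ± 0.41, adjusted p = 3e-06). CP12-1 (AT2G47400) kept 63.1% of its control mean on day 5 (adjusted p = 0.11) and 47.1% on day 8 (adjusted p = 0.003). The log2 ratio of CP12-1 to CP12-2 was 2.43 ± 0.15 (SD, n = 5) for control and 3.62 ± 0.67 (n = 3) for −Mg leaves on day 5 (exact permutation p = 0.018, adjusted 0.04), and 1.93 ± 0.37 (n = 4) against 5.49 ± 0.74 (n = 5) on day 8 (exact permutation p = 0.0079, adjusted 0.04).

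Carbonic anhydrase interconverts CO2 and bicarbonate. CA1 (AT3G01500) fell on day 5 from 7888, 8221, 8717, 7524 and 12240 in control to 962, 2855 and 3900 in −Mg libraries (log2 fold change -1.99 ± 0.44, adjusted p = 0.008). On day 8 it read 6753, 2985, 2998 and 4421 against 134, 175, 112, 402 and 90.5, the lowest log2 fold change of all members (log2 fold change -4.67 ± 0.39, adjusted p = 2.2e-06). CA2 (AT5G14740) had log2 fold changes of -1.59 and -3.31 on these days. Its day 5 call was lost without control library 2, 4 or 5 (-1.62 to -1.47) and with a replicate block (-1.38). The log2 ratio of CA1 to CA2 did not pass on day 5 (difference of -0.40, exact permutation p = 0.11) and was lower in every −Mg library on day 8 (difference of -1.36, exact permutation p = 0.016, adjusted 0.04).

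**Figure D3:**
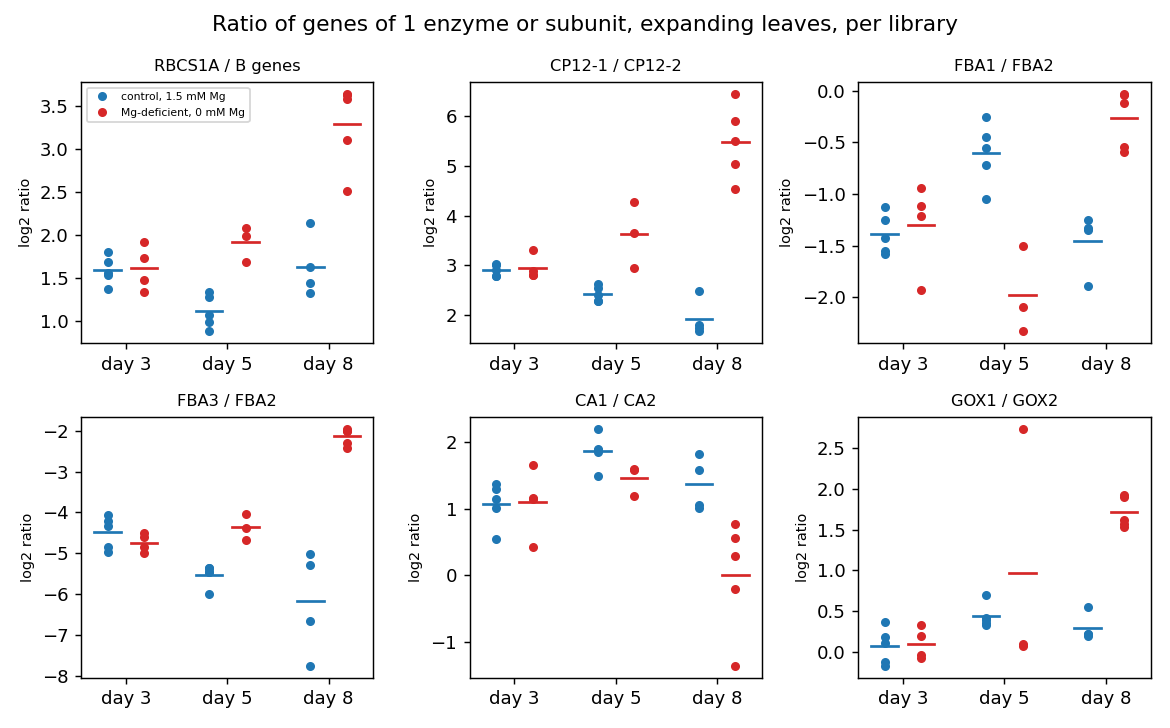
Log2 ratio of the signals of 2 genes of the same enzyme or subunit in each library of expanding leaves, by day, with lines at the group means (RBCS1A against the sum of RBCS1B, RBCS2B and RBCS3B). The groups lie together on day 3, and on day 8 the means of CP12-1 / CP12-2 are 1.93 in control and 5.49 in −Mg leaves.

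All 12 photorespiration members were called lower on day 5, though PGLP1 only on reads that cannot be told from those of its copy. Their log2 fold changes ran from -2.92 to -1.25 with a median of -2.20, against 16 of 24 Calvin cycle members and a median of -1.28. On day 8 the counts were 11 of 12 and 23 of 24, with medians of -2.55 and -2.35. No test of the difference between the pathways was run.

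Phosphoglycolate phosphatase opens the pathway. PGLP1 (AT5G36700) had only 9.68, 5.83, 9.13, 5.92 and 15.6 units of signal in control and 1.2, 1.06 and 0 in −Mg libraries on day 5, and all of its 50-base exon windows (100%) occur again elsewhere in the genome. Its fitted fold changes (-2.55 on day 5, -2.89 on day 8) depend on the added 1 and are uncertain. Summed with its copy the signal on day 5 was 11.29 ± 4.69 (SD, n = 5) for control and 5.33 ± 8.06 (n = 3) for −Mg leaves, and the groups overlapped (5.83 to 17.65 against 0 to 14.6). By day 8 PGLP1 alone had 39.5, 5.59, 0.355 and 23 in control libraries and less than 1 in every −Mg library, and the groups overlapped. Summed with its copy the day 8 signal ran from 5.59 to 39.6 in control and from 0 to 0.997 in −Mg libraries, without overlap.

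Glycolate oxidase of the peroxisome makes glyoxylate and H2O2. GOX1 (AT3G14420) fell on day 5 from 2138, 2085, 2348, 2029 and 2208 in control to 218, 490 and 654 in −Mg libraries (log2 fold change -2.39 ± 0.32, adjusted p = 0.00056). At day 8 it read 1582, 1046, 1510 and 957 against 284, 672, 789, 661 and 457 (log2 fold change -1.20 ± 0.29, adjusted p = 0.0048). Its neighbour GOX2 (AT3G14415) fell by 2.92 on day 5 and by 2.62 on day 8 on the log2 scale, from means of 1591 and 1031 in control leaves. Summed over both genes the signal was 3753 ± 101 (SD, n = 5) for control and 822 ± 520 (n = 3) for −Mg leaves on day 5, and 2304 ± 536 (n = 4) against 754 ± 281 (n = 5) on day 8. The log2 ratio of GOX1 to GOX2 was 0.30 ± 0.17 (SD, n = 4) for control and 1.71 ± 0.19 (n = 5) for −Mg leaves on day 8 (exact permutation p = 0.0079, adjusted 0.04). On day 5 it differed by 0.53 with an exact permutation p of 0.68, with −Mg library 1 standing at 2.73 and the other two at 0.08 and 0.10.

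Glyoxylate is aminated to glycine by peroxisomal aminotransferases. AGT1 (AT2G13360), the serine:glyoxylate aminotransferase, fell on day 5 from 5202, 5426, 3862, 5663 and 6234 to 587, 1251 and 1724 (log2 fold change -2.27 ± 0.35, adjusted p = 0.0013). After 8 days it read 4618, 1929, 2089 and 2899 in control and 307, 690, 721, 656 and 473 in −Mg libraries (log2 fold change -2.32 ± 0.31, adjusted p = 6.3e-05). The glutamate:glyoxylate enzyme GGAT1 (AT1G23310) stood at 42% of the control mean on day 5 (log2 fold change -1.25 ± 0.21, adjusted p = 0.0022) and 67.9% on day 8 (log2 fold change -0.56 ± 0.15, adjusted p = 0.0095). The day 8 call was lost with limma array weights (-0.56) and with a replicate block (-0.58).

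Mitochondrial glycine decarboxylase, a complex of P, T, H and L proteins, and serine hydroxymethyltransferase turn glycine into serine and release CO2 and ammonium. GLDP1 (AT4G33010), the main P-protein gene, had the smallest p of all members on day 5, with 1785, 2473, 2175, 2487 and 2290 in control and 356, 493 and 664 in −Mg libraries (log2 fold change -2.19 ± 0.25, adjusted p = 0.00023). On day 8 it had 1691, 842, 946 and 1170 against 184, 180, 250, 246 and 157 (log2 fold change -2.48 ± 0.24, adjusted p = 5.9e-06). The second P-protein gene, GLDP2 (AT2G26080), fell on day 5 (log2 fold change -1.25 ± 0.22, adjusted p = 0.0024) but on day 8 its signal was 83.5, 2.65, 91.1 and 34.6 in control and 39, 44.8, 60.4, 74.2 and 40 in −Mg libraries, with overlap (log2 fold change 0.69 ± 0.79, adjusted p = 0.5). The log2 ratio of GLDP1 to GLDP2 differed by -0.93 on day 5 (exact permutation p = 0.018, adjusted 0.04) and by -3.17 on day 8 (exact permutation p = 0.0079, adjusted 0.04). On day 8 control library 2 held a GLDP2 signal of 2.65, against 34.6 to 91.1 in the other control libraries. The T protein GLDT (AT1G11860) fell by 2.22 and 3.36 and the H protein GLDH1 (AT2G35370) fell by 1.54 and 3.22 on the log2 scale on days 5 and 8. SHM1 (AT4G37930) went from 1192, 1460, 1112, 1310 and 1083 to 264, 525 and 630 on day 5 (log2 fold change -1.46 ± 0.29, adjusted p = 0.0045). On day 8 SHM1 read 1268, 952, 1091 and 951 in control and 100, 199, 174, 184 and 207 in −Mg libraries (log2 fold change -2.65 ± 0.23, adjusted p = 3e-06).

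Hydroxypyruvate reductase and glycerate kinase close the pathway. HPR1 (AT1G68010) fell on day 5 from 1124, 1315, 956, 1445 and 1268 to 74.6, 353 and 371 (log2 fold change -2.49 ± 0.46, adjusted p = 0.0033). By day 8 it read 973, 473, 810 and 633 against 78, 136, 151, 120 and 91.7 (log2 fold change -2.62 ± 0.27, adjusted p = 9.4e-06). GLYK (AT1G80380), which returns glycerate to the Calvin cycle as 3-phosphoglycerate, read 313, 405, 283, 374 and 360 in control and 31.6, 71.2 and 192 in −Mg libraries on day 5 (log2 fold change -2.17 ± 0.45, adjusted p = 0.0064). On day 8 GLYK read 298, 145, 170 and 198 against 27, 51.8, 47.6, 53.8 and 42.8 (log2 fold change -2.14 ± 0.30, adjusted p = 0.00011). For both genes every −Mg library was lower than every control library on both days.

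−Mg library 1 of expanding leaves on day 5 held 12656 genes with a read, the fewest of its table. Without it 27 members were called lower and 0 higher, with a median log2 fold change of -1.15. The number called lower was 23 to 29 when any 1 library of the table was left out. It was 26 after rescaling by the median of ratios and 31 with voom. With a replicate block 22 of the 28 calls were lost, and those of FBA1, GOX1, GLDP1, GLDT, HPR1 and GLYK were kept. The median of the members was then -1.43. Whether the library numbers pair the samples is not settled. At day 8 the number called lower was 32 to 34 when any 1 library was left out. After rescaling it was 34, where the median of the members was -3.04, and a replicate block ended 2 calls.

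The response changed with time. From day 3 to day 5 in expanding leaves, 25 of 36 members had a lower log2 fold change and 0 a higher one (adjusted p under 0.05 for the difference), beside 10.5% lower and 7.41% higher among 14568 genes. From day 5 to day 8, 12 had a lower and 2 a higher log2 fold change, beside 3.53% lower and 13.2% higher among 14584 genes. The lower ones were RBCS1B, RBCS2B, RBCS3B, RCA, PGK1, GAPA1, GAPA2, CP12-2, CA1, CA2, GLDH1 and SHM1. Of these, CP12-2 and CA1 moved furthest, by -2.70 ± 0.59 (SE) and -2.68 ± 0.59 on the log2 scale (adjusted p = 0.0044 and 0.0043). The higher ones were FBA1, by 1.65 ± 0.41 (adjusted p = 0.013), and FBA3, by 1.98 ± 0.55 (adjusted p = 0.019). The count of lower members was 21 without −Mg library 1 of day 5 and 7 without library 2, and after rescaling by the median of ratios it was 24 lower and 0 higher. The 2 tests from day 3 to day 5 and from day 5 to day 8 share the day 5 libraries.

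In mature leaves members passed the test on day 8 alone. On day 3 and on day 5, 0 of 36 members were called in either direction (limma), 0 had an unadjusted p under 0.05 and voom called 0. Over all genes 0% were called on each of these days, and the members' medians were 0.03 and 0.05. Their log2 fold changes ran from -0.34 to 0.42 on day 3 and from -0.57 to 0.40 on day 5. On day 8, 2 of 35 members were called lower and 0 higher, against 0.173% lower and 3.43% higher among 13314 genes. They were RBCS1A, at 17730, 19770, 17200 and 21670 in control and 12810, 12460, 18270 and 10630 in −Mg libraries (log2 fold change -0.52 ± 0.13, adjusted p = 0.028), and RBCS3B, at 4912, 4980, 4225 and 3869 against 3080, 2316, 3089 and 1630 (log2 fold change -0.87 ± 0.20, adjusted p = 0.016). The groups overlapped for RBCS1A and did not for RBCS3B. The median of the members was -0.46, where that of all genes was 0.91, and 30 of 35 members were below 0. The members' share of the signal was 4.58 to 5.32% in control and 2.44 to 3.91% in −Mg libraries, without overlap.

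The count in mature leaves on day 8 depended on the libraries and on the scaling. Control libraries 2, 3 and 4 held 6908 to 9697 genes with a read and control library 1 held 14557. The count of lower members was 0 without control 2 or 3 or −Mg library 4, 1 without control 4 or −Mg library 2, 5 without −Mg library 1 and 3 without control 1. With control library 1 as the only control it was 0, a choice made after seeing the data, while it was 26 after rescaling by the median of ratios and 10 with voom.

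The difference between the leaf types was tested directly, with the libraries of both leaf types taken as independent. On day 5, 25 of 36 members had a lower log2 fold change in expanding than in mature leaves and 0 a higher one, beside 10.8% lower and 9.96% higher among 14522 genes. On day 8 the counts were 23 of 35 lower and 0 higher, beside 4.29% lower and 1.66% higher among 12956 genes. CA1 showed the widest gap on day 8, -4.67 in expanding and -0.52 in mature leaves, a difference of -4.15 ± 0.56 (SE, adjusted p = 7.7e-06). After rescaling by the median of ratios only 2 members were called on day 8.

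The summed signal of the members was low in roots. The members made up 0.182 to 0.222% of the signal across 6 control libraries and 0.184 to 0.191% across 3 −Mg ones. Single members still had a clear signal in control roots, with GLYK at 713 to 1138, TPI at 621 to 790, CA2 at 425.5 to 597.1 and TKL1 at 351 to 490. At the other end, 14 members had too little signal or no row and were not tested. Of 22 members tested 0 were called in either direction (limma), 2 were lower at an unadjusted p under 0.05 and voom called 0, against 0.0887% higher and 0.112% lower among 16905 genes. RBCS1A ran from 24.3 to 505 in control roots with a median of 47.8, and control library 3 alone held the highest value. The same library held 63.9 of RCA and 148 of RBCS3B, more than any other root library.

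Most genes around Rubisco fell as well. Of 11 genes for assembly and protection of Rubisco, 8 were called lower and 0 higher on day 5, and 6 lower and 2 higher on day 8. Over all genes the shares were 14.8% lower on day 5 and 14.9% lower and 30.8% higher on day 8. CBBY (AT3G48420), a phosphatase that removes an inhibitor of Rubisco, fell from a mean of 340 to 161 on day 5 and from 309 to 14.9 on day 8 (adjusted p = 0.0058 and 5.2e-06). The assembly chaperone RBCX1 (AT4G04330) fell from 372 to 18.7 on day 8 (adjusted p = 6.5e-07), and the assembly factor RAF2 (AT5G51110) from 738 to 296 on day 5 and from 420 to 99.6 on day 8. The chaperonin subunit CPN60B2 (AT3G13470) fell from 289 to 93.5 on day 5 (adjusted p = 0.0074). The 2 that rose on day 8, named for that reason after their values were seen, were RBCX2, from 39.7 to 124, and CPN60A1, from 176 to 365. Neither passed after rescaling by the median of ratios (log2 fold changes of 1.02 and 0.45, adjusted p = 0.078 and 0.13), and the RAF2 call on day 5 was lost without 1 of the 8 libraries.

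Of 20 further photorespiration genes, 18 were tested in expanding leaves. On day 5, 8 were lower and 1 higher (mtLPD2), and on day 8, 8 were lower and 3 higher (mtLPD2, BASS6 and CAT2). The mtLPD2 call on day 5 was lost without any 1 of 6 of the 8 libraries. All genes gave 14.8% lower and 13.7% higher on day 5 and 14.9% lower and 30.8% higher on day 8, so that the share called higher was below that of all genes on both days. The plastid glycolate and glycerate transporter PLGG1 (AT1G32080) fell from a mean of 326 to 13.1 on day 8 (adjusted p = 1.6e-06). Ferredoxin-dependent glutamate synthase GLU1 (AT5G04140), which reassimilates photorespiratory ammonium, fell from 634 to 210 on day 5 and from 310 to 55.3 on day 8 (adjusted p = 0.00047 and 9.5e-05). The H-protein gene GLDH3 (AT1G32470) fell from 671 to 239 and from 431 to 40.1 on these days, peroxisomal malate dehydrogenase PMDH2 (AT5G09660) from 957 to 269 on day 5, and the carrier BOU (AT5G46800) from 168 to 30.6 on day 8. Catalase CAT2 (AT4G35090), which removes the H2O2 of glycolate oxidase, fell from 789 to 408 on day 5 (adjusted p = 0.034) and rose from 283 to 1032 on day 8 (adjusted p = 3.6e-05). The fall on day 5 did not pass after rescaling by the median of ratios (-0.59, adjusted p = 0.13) or without any 1 of 5 of the 8 libraries, while the rise on day 8 did (1.22, adjusted p = 0.0022). In mature leaves on day 8 CAT2 was the 1 gene of the list called, at 198 in control and 577 in −Mg leaves (log2 fold change 1.49, adjusted p = 0.03), but rescaling turned its direction (-0.31, adjusted p = 0.84) and leaving out any 1 of 5 of the 8 libraries ended the call.

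Isoforms of Calvin cycle enzymes and carbonic anhydrases that are not among the members were called in both directions. Of 14 such genes, 5 were lower (FBA5, FBA7, cyFBP, CA4, CA5) and 3 higher (PGK3, GAPC1, FBA8) on day 5, and 4 lower (FBA5, cyFBP, CA4, CA6) and 5 higher (GAPC1, GAPC2, CTIMC, FBA6, FBA8) on day 8. All genes gave 14.8% lower and 13.7% higher on day 5 and 14.9% lower and 30.8% higher on day 8, so that the share higher on day 8 was near that of all genes. After rescaling by the median of ratios GAPC2 (from 0.44 to -0.18) and CTIMC (from 0.73 to 0.11) did not pass on day 8. On day 5 the PGK3 call was lost without any 1 of 6 of the 8 libraries. The FBA5 and FBA7 calls of that day were lost without any 1 of 5 of them. On day 8 the GAPC2 call was lost without any 1 of 5 of the 9 libraries, and the CA4 call without any 1 of 4. Cytosolic GAPC1 (AT3G04120), the glycolytic GAPDH, gave 815, 581, 1061, 790 and 535 in control and 2918, 3061 and 2373 in −Mg libraries on day 5 (log2 fold change 1.91 ± 0.27, adjusted p = 0.00069). After 8 days it gave 507, 757, 883 and 720 against 3776, 2808, 3310, 3659 and 3759 (2.29 ± 0.19, adjusted p = 1.9e-06), higher in every −Mg library on both days. The aldolase FBA6 (AT2G36460) rose on day 8 from 202, 108, 139 and 172 to 599, 381, 563, 448 and 527 (1.71 ± 0.23, adjusted p = 7.1e-05), while FBA5 (AT4G26530) fell from 967, 1056, 1016 and 757 to 4, 13.9, 0.971, 61.6 and 1.48 (-6.99 ± 0.82, adjusted p = 2.7e-05). The cytosolic fructose bisphosphatase cyFBP (AT1G43670) fell from a mean of 498 to 196 and carbonic anhydrase CA4 (AT1G70410) from 424 to 117 on day 5. FBA5 was also the 1 isoform called in mature leaves on day 8, from a mean of 408 to 135 (adjusted p = 0.047, with overlap), a call lost without any 1 of 6 of the 8 libraries and kept after rescaling (-3.56, adjusted p = 0.0055).

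**Figure D4:**
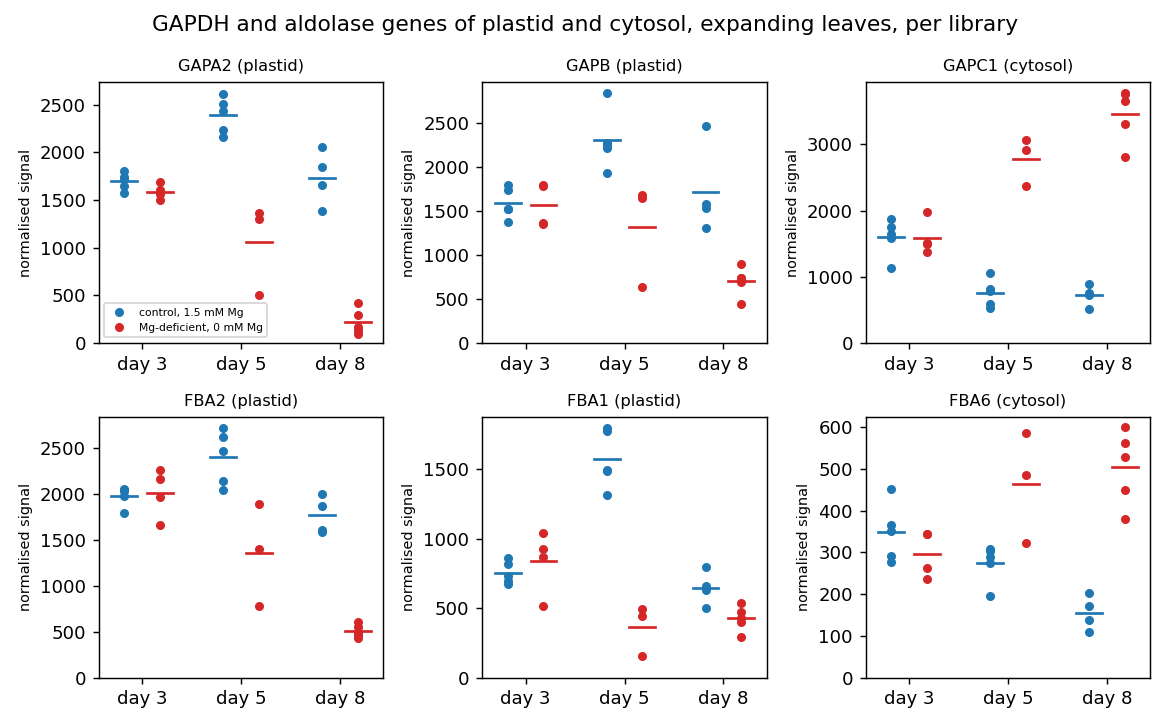
Normalised signal per library of chloroplast GAPDH and aldolase genes and of cytosolic GAPC1 and FBA6 in expanding leaves by day, with lines at the group means. Levels are comparable within a day only, and on day 8 GAPA2 is lower in every −Mg library than in any control, while the GAPC1 means are 717 in control and 3462 in −Mg leaves. GAPC1 and FBA6 are among the 5 isoforms outside the members that were called higher on day 8. The 4 called lower (FBA5, cyFBP, CA4 and CA6) are not shown.

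Markers of other kinds moved in the same libraries. Of 5 antenna genes used as mesophyll markers (CAB1, LHCB2.1, LHCA1, LHCA4 and LHCB6), 2 were called higher (LHCB2.1, LHCA4) and 1 lower (LHCB6) on day 5, and 0 higher and 4 lower (not LHCB2.1) on day 8. Their summed signal was 13690 to 16210 in control and 7490 to 17080 in −Mg libraries on day 5, with overlap, and 15310 to 21230 against 2621 to 8054 on day 8. The 5 vascular markers summed to 466 to 501 and 245 to 527 on day 5 (0 called) and to 379 to 576 and 185 to 240 on day 8 (1 lower, SUC2), and IRX3 was at 0 in the control libraries of day 8. The 4 guard cell markers summed to 224 to 322 and 111 to 289 on day 5 and to 147 to 272 and 98.6 to 205 on day 8, with 0 called. The 3 epidermis markers summed to 915 to 1205 and 306 to 697 on day 5 (CUT1 lower) and to 1114 to 1773 and 294 to 630 on day 8 (CUT1 and ATML1 lower). Of the senescence markers SAG12, SAG13 and SAG21, SAG12 was not listed in expanding leaves on these days and the sum of the other two was 10.14 to 83.1 in control and 4830 to 6784 in −Mg libraries on day 5, and 0.458 to 104.5 against 6412 to 12020 on day 8. In mature leaves on day 8 the 3 senescence markers summed to 7.33 to 222 against 845 to 2235. Their part in the fall of the members was not tested.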

How the data were processed

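Strand-specific RNA-seq of leaves and roots had been sequenced as 50-base single reads and aligned to TAIR10. The authors then deposited, for each tissue and day, a table of edgeR pseudo-counts, here called the normalised signal, made in R 3.5.0 per the labels and methods by adjusting read numbers to a common library size. The adjustment was undone from the steps between values, and 99.3 to 100% of the recovered values were whole reads (within 0.05 read). The libraries had been chosen for RNA quality by the authors, and p-values measure the spread between these libraries only.

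Genes whose mean signal reached 5 were tested with limma 3.58.1 in R 4.3.3 on log2(signal + 1) with a trended variance, Mg-deficient against control within each table, and p-values were adjusted by the Benjamini-Hochberg method over the table and called under 0.05. Fold changes are on this scale, which understates changes of low genes. Differences between tables used both standard errors with Satterthwaite degrees of freedom and took the libraries of both tables as independent. Whether mature and expanding leaf libraries of a day came from the same plants is not given by the labels. Ratios of paralogs used an exact two-sided permutation test over 9 pairs on 3 days. Figures were drawn with matplotlib 3.10.9 in Python 3.11.15. The fits were run on simulated data with independent libraries of equal depth. The simulation held no shallow libraries, scaling shift or replicate structure, so it does not cover these. The signal was not a count, so that limma replaced a count test.

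The 36 members, the other gene lists and the tests were chosen with earlier results of these data known. Values per library are given for the RBCS genes, RCA and, at each step, the member with the smallest p in expanding leaves on day 5, and for 3 genes at most per other list and table. Other genes named, and per-library values of other genes, were chosen after their values were seen. Promoter sequences and exon windows came from RefSeq's TAIR10.1, and all 36 members matched by locus. Alternatives were other pseudocounts, filters and scaling, array weights, voom on recovered reads, a replicate block and leaving out each library.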

Additional observations from a re-analysis of the deposited data

Results flagged for a closer look

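Libraries far from the others of their group, by Dixon's criterion in groups of 4 to 10, were found for the summed share of the members in 1 of 10 groups and for single members in 10 of 227 gene and group combinations. Chance alone flags about 1 in 20. The summed share was 4.58% in control library 1 of mature leaves on day 8, below the other controls. On day 3, RBCS3B stood apart at 12890 in control library 3 of mature leaves. On the same day PRK stood apart at 2924 in control library 5 of expanding leaves, RCA at 10260 in −Mg library 4 and TKL1 at 3108 in −Mg library 3. CA1 stood apart at 12240 in control library 5 of expanding leaves on day 5 and at 402.2 in −Mg library 4 on day 8. In roots, control library 3 stood apart for RBCS1A (504.7), RBCS3B (147.9), RCA (63.91) and RPE (36.62).

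The response differed between days and between leaf types by a test of the difference itself. Of the members, 25 had a lower log2 fold change in expanding leaves on day 5 than on day 3. On day 8 against day 5, 12 were lower and 2 higher. Against mature leaves, 25 were lower in expanding leaves on day 5 and 23 on day 8.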

How the results depend on the processing

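No member that passed the test changed direction under any alternative run, while FBA3 in mature leaves on day 8, which did not pass, went from 1.33 to -0.41 on the log2 scale with median of ratios scaling. In mature leaves on day 8 the count of lower members was 2, and it was 0 with a filter at a mean of 20, 26 with median of ratios scaling, 0 with array weights, 10 with voom, 0 with control library 1 as the only control (chosen after seeing the data) and 0 to 5 on leaving out 1 library. Of the genes named from other lists, whose alternatives were added after seeing the data, CAT2 in mature leaves on day 8 turned from 1.49 to -0.311 and GAPC2 in expanding leaves on day 8 from 0.44 to -0.184 with that scaling. With median of ratios scaling, the members higher on day 8 than on day 5 in expanding leaves went from 2 to 0, those lower from 12 to 24, and those lower in expanding than in mature leaves on day 8 from 23 to 2. On leaving out 1 library, the members lower on day 8 than on day 5 numbered 7 to 21 and the paralog ratios called 0 to 12, of 12. Without any −Mg library of expanding leaves on day 8 the ratios called were 0, where fewer samples raise the smallest p the test allows. For the other changes the cause was not tested. Same-numbered control and −Mg libraries had correlations of -0.15 to 0.23, and of -0.07 to -0.05 in expanding leaves on day 5. With 3 or 4 pairs per table this cannot settle whether the numbers pair the samples. In mature leaves, 2 of 3 pairs on day 5 and 1 of 3 on day 3 were best with their own number, and 0 in the other tables. With a replicate block the lower members were 4 in mature leaves on day 8 and 6 in expanding leaves on day 5. With the replicate block, the lower members were 5 for day 5 against day 3, 0 lower and 0 higher for day 8 against day 5, and 5 for expanding against mature leaves on day 5. Depth in the mature day 8 controls went down to 545998 reads, and its part in the count there was not tested.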
